A study of Danio rerio with 20 samples.

Results

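Gonads of unexposed adult zebrafish from 2 sets, named 3H and 6H in the sample titles, were compared CpG by CpG. They were the 5 samples of 3H controls and the 5 samples of 6H controls, 10 of the 20 samples of the study. All fish were of the laboratory strain AB, reared in aquaria, and 90 days old, and gonads were frozen before DNA extraction. The other 10 samples came from fish treated as larvae with lipopolysaccharide (LPS) of Pseudomonas aeruginosa, a component of the bacterial outer membrane that elicits inflammation. What 3H and 6H stand for, whether the controls were handled or sham-treated, the sex of the fish, and whether each sample was 1 fish or a pool are not given in the labels. Replicates are therefore separate samples of a group, and the spread between them may in part be technical. Methylation of amplicons does not report marker genes, so the labelled tissue could not be checked against cell type markers.

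In DNA methylation a methyl group sits on cytosine, in vertebrates mainly where cytosine is followed by guanine (a CpG). DNMT1 copies the pattern to the new strand at cell division, the DNMT3 enzymes add new marks, and TET enzymes start their removal. Most CpGs of vertebrate genomes are methylated, whereas CpG-rich stretches, often at the start of genes, are mostly free of it. A gonad holds germ cells and several somatic cell types, and sex genes in fish gonads are known to carry methylation that differs between ovary and testis. In bulk tissue, a changed share of cell types and a changed level within cells cannot be told apart.

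After bisulfite treatment only methylated cytosine is still read as cytosine, and its share of the reads at a CpG is the percent methylated. The 10 control tables listed 376 positions. A CpG was kept if it had 10 or more reads in at least 4 of 5 samples of each set, which left 140 CpGs, all of them in 8 short regions (kept CpGs at most 500 bp apart). Each library held from 721113 to 2046055 calls, one for each read at each position, and from 99.87% to 99.98% of them lay at the kept CpGs. Positions are those of the genome build GRCz11, counted from 1. No annotation of this build was used here, so regions are named by position, without gene, exon or promoter.

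Depth set how well each region could be read. In the first chromosome 5 region every 6H control was shallower than every 3H control, with medians of 55 to 478 reads per CpG against 703 to 4758. In the other 7 regions the depths of the sets overlapped, and medians lay between 191 and 27398 reads. The 2 lowest of these were 3H control replicate 1 on chromosome 18, at 191 reads, and 6H control replicate 5 on chromosome 19, at 266 reads. Both samples stood apart in methylation in those regions, and also at single CpGs of other regions where they were deeply read, as described where the regions come up. A further 8 CpGs had a median depth under 1% of that of their region. Together they held 3099 reads over the 10 controls, of which 1 was methylated. These 8 CpGs pull the unweighted mean of their regions towards 0. Without them, the chromosome 10 region averaged 64.0% in 3H and 63.1% in 6H controls, and the chromosome 18 region 87.1% and 84.8%. The chromosome 3 region averaged 0.450% in 3H and 0.430% in 6H controls, and the second chromosome 5 region 0.712% and 0.513%.

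**Figure D1:**
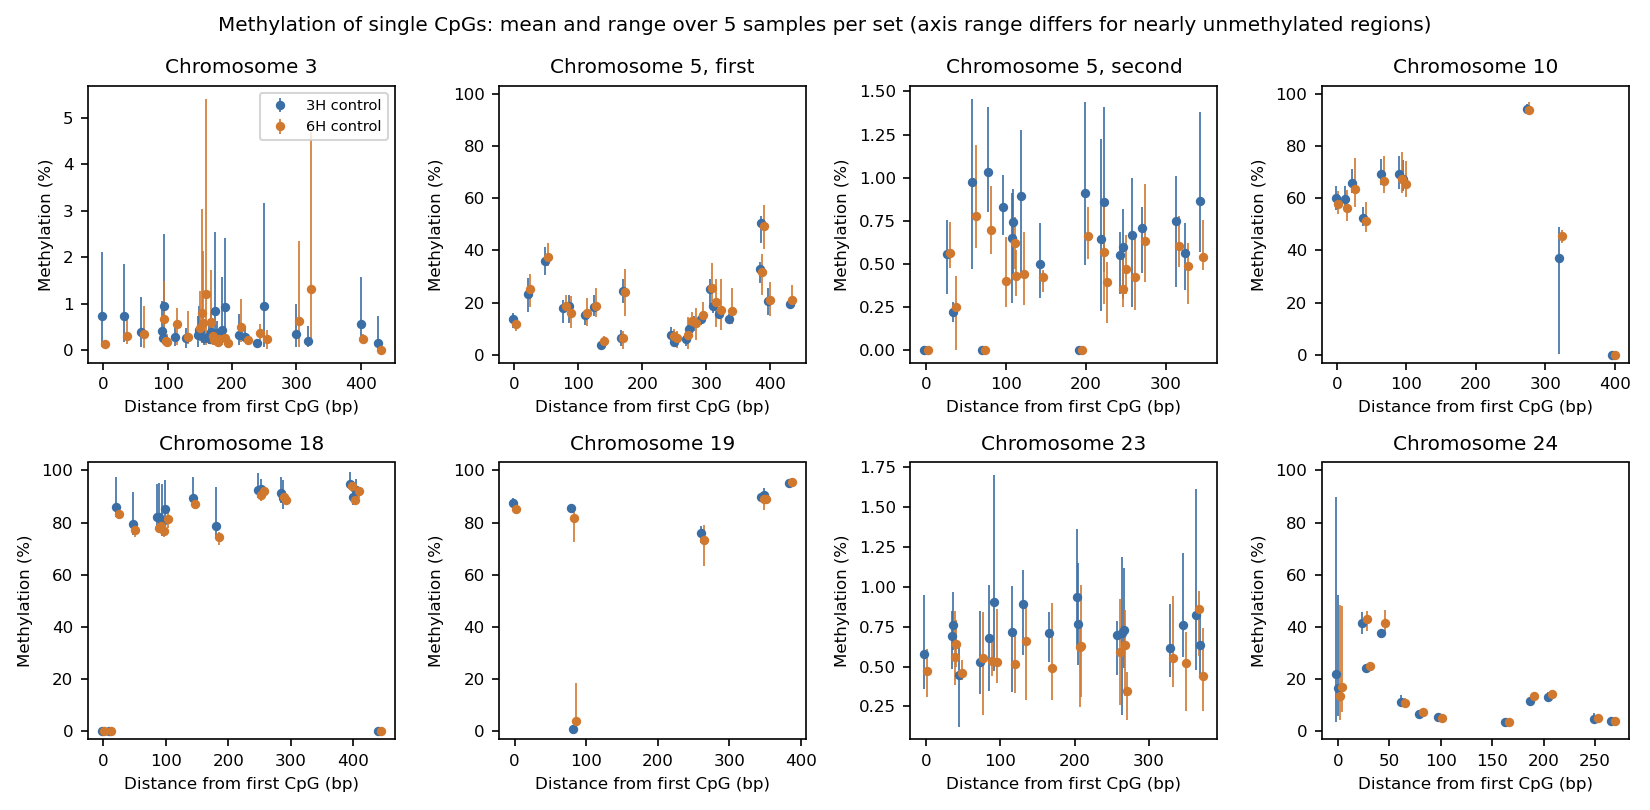
Percent methylated (vertical axis) against distance in bp from the first kept CpG (horizontal axis) for the 8 regions, with the mean (point) and the range (line) of the 5 samples of each set. Levels near 0 fill the chromosome 3, second chromosome 5 and chromosome 23 regions, and on chromosome 19 a CpG at 2.34% lies 3 bp from one at 83.8%.

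Most of the kept CpGs, 77 of 140 (55.0%), had a mean under 5% over the 10 controls. Another 34 lay from 5% to under 50%, 22 from 50% to under 90%, and 7 at 90% or more. The classes followed the regions. All 27 CpGs of the chromosome 3 region, all 22 of the second chromosome 5 region and all 19 of the chromosome 23 region were under 5%. All CpGs at 50% or more came from chromosomes 10, 18 and 19. Of the 34 from 5% to under 50%, 23 were in the first chromosome 5 region, 10 on chromosome 24 and 1 on chromosome 10.

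The chromosome 18 region (39636122 to 39636564, 18 CpGs) was highly methylated. Its median level over all 18 CpGs was 83.9%, against 86.5% on chromosome 19 and 61.8% on chromosome 10. Without its 3 sparsely read CpGs, the chromosome 18 region averaged 86.0% ± 3.71 (SD, n = 10). In the 3H controls the values were 96.2%, 85.9%, 84.1%, 84.1% and 85.1% for replicates 1 to 5. The 6H controls were at 84.9%, 82.9%, 85.8%, 85.3% and 85.2%. Replicate 1 of the 3H controls was thus far above the other 9 samples, and it was the highest of all 10 at each of the 15 CpGs. Its depth there was the lowest of the 10, and the part of depth in its level was not tested. Among the 15 CpGs, the highest was 39636518 with 94.3% ± 2.15 (SD, n = 10) and the lowest 39636305 with 76.6% ± 6.34 (SD, n = 10). The widest step between neighbouring CpGs was 14.9 percentage points, from 39636305 up to 39636372, 67 bp apart.

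On chromosome 19 (27019198 to 27019584, 7 CpGs) methylated CpGs surrounded one that was read as nearly unmethylated in most controls. The last CpG, 27019584, was the highest at 95.3% ± 0.572 (SD, n = 10). Position 27019279 was at 83.8% ± 4.28 (SD, n = 10), but 27019282, 3 bp further on, was at 2.34% ± 5.69 (SD, n = 10). In the 3H controls this CpG was at 0.789%, 0.978%, 1.07%, 0.487% and 0.550%. The 6H controls were at 0.196%, 0.113%, 0.388%, 0.302% and 18.5% for replicates 1 to 5. In 6H replicate 5, 50 of 270 reads were methylated (exact 95% binomial interval 14.1% to 23.7%, which covers counting error only). The same sample was below the other 9 at 5 of the other 6 CpGs, among them 27019279 with 72.5% and 27019461 with 63.5%. The other 9 samples were from 81.0% to 87.1% and from 72.0% to 79.0% at these positions. This library had 266 reads per CpG here against 1227 or more in the other 9, and the part of depth was not tested. A high value at 27019282 was also found in 1 of the LPS samples. There 3H LPS replicate 5 was at 17.98%, and the other 9 LPS samples were from 0.0796% to 0.568%.

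The chromosome 10 region (44956550 to 44956948, 10 CpGs) was moderately methylated and varied between samples as a block. Over its first 7 CpGs, the last of which lies 97 bp from the first, the 3H controls averaged 59.9%, 61.4%, 59.7%, 67.3% and 68.9%. The 6H controls averaged 69.8%, 59.1%, 56.5%, 63.0% and 57.8%. Leaving out the sparsely read CpG, 6H replicate 1 was the highest of its set at all 9 CpGs, and 3H replicate 5 at 7 of 9. The spread between samples of a set (median SD 4.98 percentage points per CpG) was 9.78 times the spread that counting reads would give, the highest such ratio of the 8 regions. Position 44956825 was at 94.2% ± 1.56 (SD, n = 10), the highest of the region, and the next CpG, 44956872, at 41.3% ± 14.5 (SD, n = 10).

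The first chromosome 5 region (44944720 to 44945152, 24 CpGs) was at intermediate, uneven levels. Its CpGs ran from 4.50% ± 1.21 (SD, n = 10) at 44944858 to 49.9% ± 5.82 (SD, n = 10) at 44945108, and the CpG 10 bp after the latter was at 20.7%. By sample, the 3H controls averaged 18.2%, 19.5%, 19.4%, 18.2% and 14.3%. The 6H controls averaged 14.7%, 18.3%, 22.2%, 14.5% and 22.7%. Replicate 5 was the lowest 3H control at 20 of 24 CpGs, and replicate 5 of the 6H controls was the highest of its set at 15 of 24. In 6H replicate 3, 44945108 rested on 54 reads, of which 30 were methylated (exact 95% interval 41.4% to 69.1%).

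On chromosome 24 (21640622 to 21640889, 13 CpGs) the level was highest at the third to the fifth CpG. Position 21640648 was the highest, at 42.2% ± 2.97 (SD, n = 10), and 21640786 the lowest, at 3.64% ± 0.662 (SD, n = 10). The steepest change was a step of 28.5 percentage points over the 19 bp from 21640666, at 39.5%, to 21640685. The first 2 CpGs differed from the rest in that single samples were far from the others.

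At position 21640622 of chromosome 24, 8 of the 10 controls were between 3.58% and 7.17%. Replicate 4 of the 3H controls was at 89.7% (4879 of 5438 reads) and replicate 1 of the 6H controls at 48.3% (4836 of 10022 reads). The CpG 2 bp further on, 21640624, was at 52.1% and 48.2% in the same 2 samples and between 5.87% and 10.5% in the other 8. At the remaining 11 CpGs these samples were ordinary: 3H replicate 4 lay within the range of the other 9 samples at 9 of 11, and 6H replicate 1 at 8 of 11. Of the 10 LPS samples, 6 were between 20% and 70% at 21640622, and none reached 70%.

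A comparable pattern was seen at 44956872 of chromosome 10. The 3H controls were at 0.271%, 48.8%, 45.0%, 44.2% and 47.6%, and the 6H controls at 47.7%, 42.8%, 46.6%, 44.1% and 45.5%. Replicate 1 of the 3H controls was thus near 0 while the other 9 were close to each other, and this sample was within the range of the others at the other 8 well-read CpGs of the region. In LPS samples the order was the other way round, with 9 of 10 from 0.131% to 0.376% and 3H LPS replicate 4 at 45.1%. No genotypes were used here, so levels at single CpGs are shares of reads with cytosine.

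**Figure D2:**
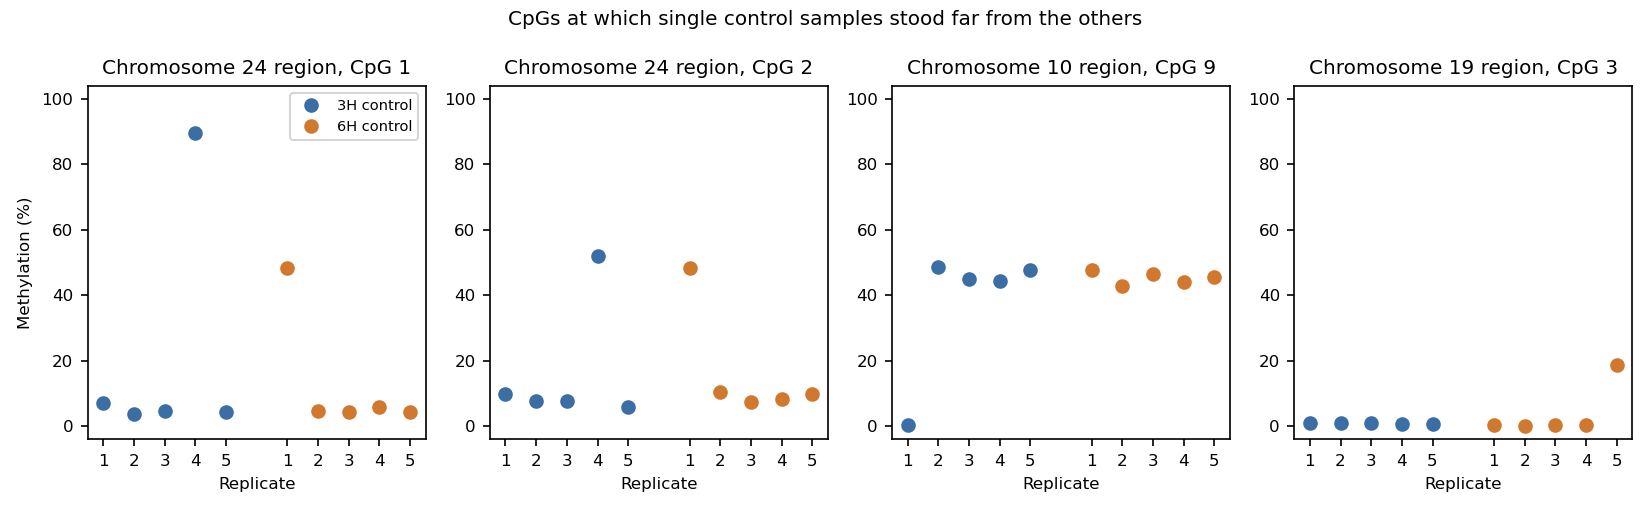
Percent methylated (vertical axis) of each control sample by replicate number and set (horizontal axis) at the first 2 CpGs of the chromosome 24 region, the ninth of chromosome 10 and the third of chromosome 19. Replicate 4 of the 3H controls stands at 89.7% and 52.1% and replicate 1 of the 6H controls at 48.3% and 48.2% in the chromosome 24 panels.

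The 3 nearly unmethylated regions differed in how far single values lay from the median of their CpG. The chromosome 23 region (24973689 to 24974060, 19 CpGs) and the second chromosome 5 region (67992793 to 67993138, 22 CpGs) were even, with CpG means from 0.452% to 0.843% in the former. Well-read CpGs of the latter ran from 0.236% ± 0.116 (SD, n = 10) at 67992829 to 0.876% ± 0.315 (SD, n = 10) at 67992853. The CpG at 67992829 was read less in 6H controls, with 276 to 5380 reads against 4787 to 19648 at 67992853. Its 6H values rest on 0 to 10 methylated reads per sample, and 3H replicate 4 had 1432 reads there. In each of these regions, 0 of 190 values (1 per well-read CpG and control sample) reached 3 times the median of its CpG. The chromosome 3 region (54607068 to 54607497, 27 CpGs) had such values in 42 of 260 cases, spread over 21 of 26 CpGs and over all 10 samples (1 to 9 per sample). The factor of 3 was chosen after the values were seen, so these counts are a description. It lies just above the largest ratios of the second chromosome 5 region (2.93) and of chromosome 23 (2.82), against 39.8 on chromosome 3. Values over 1% were about as frequent on chromosome 3 (9.62%) as in the second chromosome 5 region (9.47%), with 6.32% on chromosome 23.

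The highest of these single values on chromosome 3 was 54607226 in 6H replicate 5, where 1383 of 25521 reads were methylated. This is 5.42% (exact 95% interval 5.14% to 5.70%), with the other 9 controls from 0.104% to 0.519%. At 54607388, 6H replicate 2 had 4.70% from 860 of 18314 reads, against a median of 0.152% over the 10 controls. At 54607320, 3H replicate 1 had 3.18% from 659 of 20737 reads, against a median of 0.356%. Different samples were high at different CpGs, but some recurred. Replicate 2 of the 3H controls held 9 of the 42 values. Replicate 2 of the 6H controls was also at 3.04% and 2.13% at 54607219 and 54607221, 2 bp apart. In this region the spread between samples was 6.91 times that of counting reads (median over CpGs), whereas this ratio was 3.02 on chromosome 23 and 2.38 for the second region of chromosome 5.

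**Figure D3:**
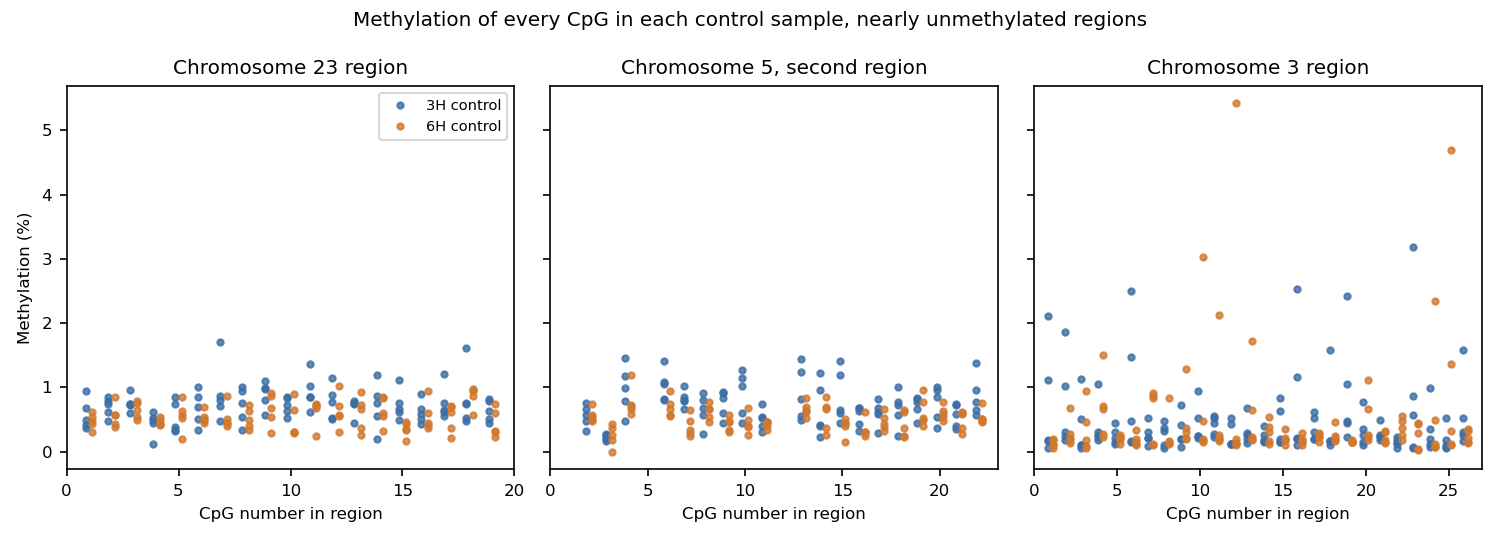
Percent methylated (vertical axis) of every well-read CpG, numbered along its region (horizontal axis), with 1 point for each of the 10 control samples, coloured by set. Points of the chromosome 23 and second chromosome 5 regions stay at or below 1.70%, while single samples on chromosome 3 reach 5.42%.

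The 2 sets of controls were then compared, which shows how far unexposed gonads differed between the sets. Of the 8 regions, 2 passed (25.0%), the chromosome 23 region and the second chromosome 5 region, and both were lower in 6H controls. Levels are means over all kept CpGs of a region, compared by a two-sided exact permutation test over all splits of 5 against 5 samples and adjusted over the 8 regions.

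On chromosome 23 the 3H controls were at 0.715%, 0.803%, 0.678%, 0.626% and 0.757%, and the 6H controls at 0.560%, 0.549%, 0.591%, 0.481% and 0.613%. Every 6H control lay below every 3H control, although the highest 6H and the lowest 3H sample were close. The 6H level was 0.781 times that of 3H, a difference of -0.157 percentage points (permutation interval, 95%, from -0.244 to -0.0660). Its exact permutation p was 0.00794 (adjusted p = 0.0317). The second region of chromosome 5 had 3H controls at 0.658%, 0.591%, 0.623%, 0.561% and 0.639%, and the 6H controls at 0.416%, 0.384%, 0.466%, 0.471% and 0.477%. The groups were again apart. The 6H level was 0.721 times that of 3H, and the difference was -0.171 percentage points (interval -0.239 to -0.107). The exact permutation p was again 0.00794 (adjusted p = 0.0317), the smallest that 5 against 5 samples allow. Without its 3 sparsely read CpGs the difference was -0.199.

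These regions were called as a whole with any 1 of the 3H controls left out, but not with any 1 of the 6H controls left out (exact permutation test, adjusted p = 0.0635). These outcomes differ by whether a split in the opposite direction was as far apart. In both regions the sets did not overlap with all controls, which leaving out a control could not change. Neither region passed when the median over CpGs replaced the mean. No bisulfite conversion rate was used here, so levels near 0 can hold unconverted and misread bases as well as methylated ones. The chromosome 3 region, of similarly low level, differed by -0.0255 percentage points in the mean (interval -0.244 to 0.197). Its median over samples was 0.491% in 3H and 0.351% in 6H controls. The samples there ranged from 0.233% to 0.619% in 3H and from 0.282% to 0.639% in 6H controls. Depths of the sets overlapped on chromosome 23, at 4974 to 24715 reads in 3H and 10381 to 26872 in 6H controls. The medians were 9403 and 17646, so 6H controls were mostly deeper there. In the second chromosome 5 region the medians were 12195.5 in 3H and 13483.5 in 6H controls. The part of depth was not tested.

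**Figure D4:**
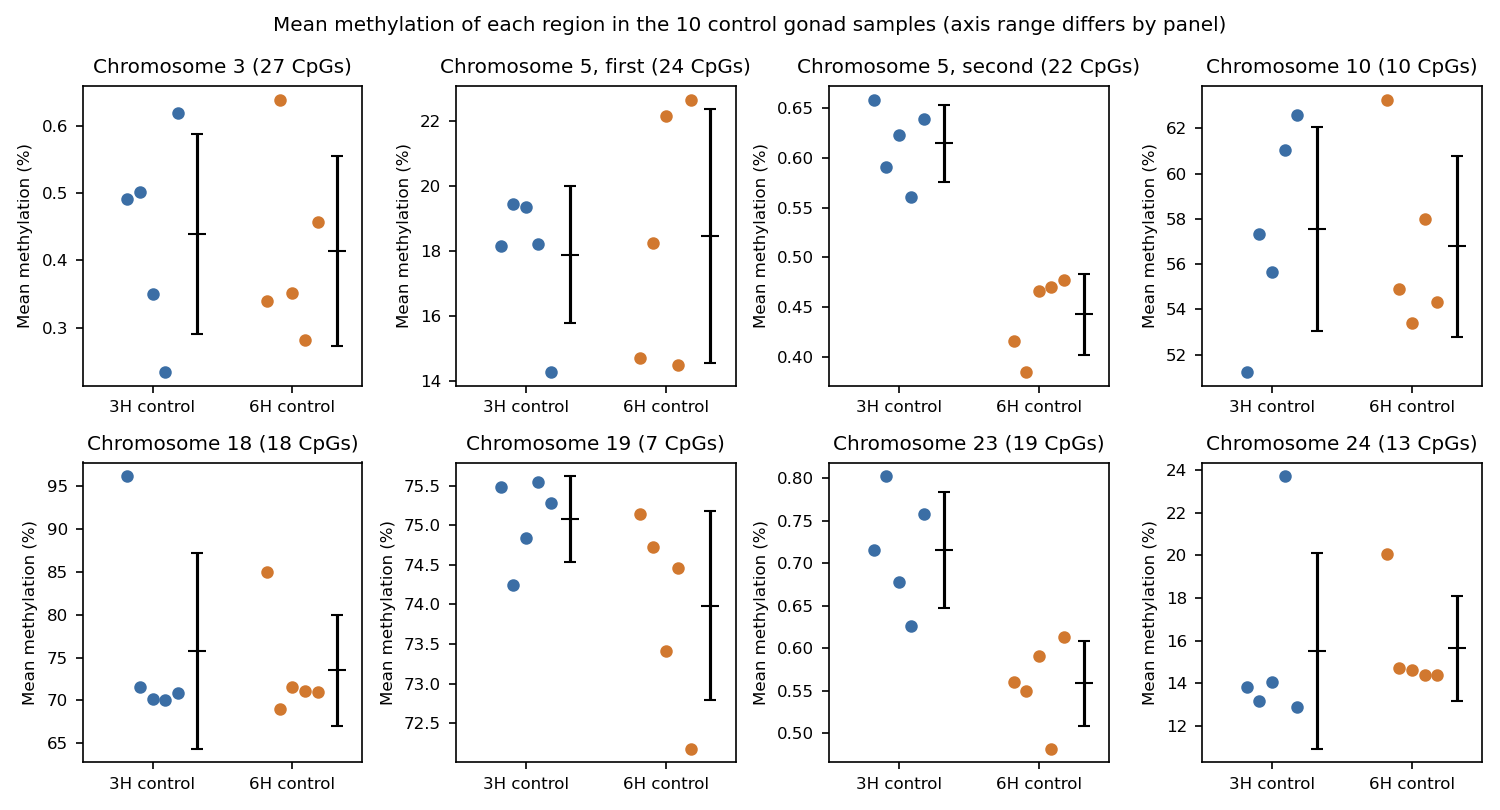
Mean methylation in percent (vertical axis, with a different range in each panel) of the 8 regions for the 3H and 6H control samples (horizontal axis), with 1 point per sample and the mean ± SD beside them. The sets are apart in the chromosome 23 panel and the second of the chromosome 5 panels, and they overlap in the other 6. In the chromosome 18 panel, replicate 1 of each set is averaged over 15 CpGs, without 3 at 0%, and the other samples over 18.

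The shift in these 2 regions was spread over many CpGs. The mean was lower in 6H controls at 16 of 19 CpGs on chromosome 23 and at 17 of 22 in the second chromosome 5 region, where 3 more were at 0% in all samples. Over all 140 CpGs it was lower at 86 (61.4%), and on chromosome 3 at 14 of 27. Regions that did not pass could be as one-sided, with 15 of 18 lower on chromosome 18 and 8 of 10 on chromosome 10. On chromosome 18, 3H replicate 1 was the highest of all 10 controls at each of these 15. The counts were 5 of 7 on chromosome 19, 8 of 24 in the first chromosome 5 region and 3 of 13 on chromosome 24. The median difference per CpG was -0.136 percentage points in each of the 2 regions, against -0.132 over all CpGs, whose levels reach far higher. Values over 1% were found mostly in 3H controls. On chromosome 23 there were 11 in 3H and 1 in 6H controls, and in the second chromosome 5 region 17 and 1. On chromosome 3 there were 15 and 10. These counts come from the same values as the region means, so they add no separate support.

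**Figure D5:**
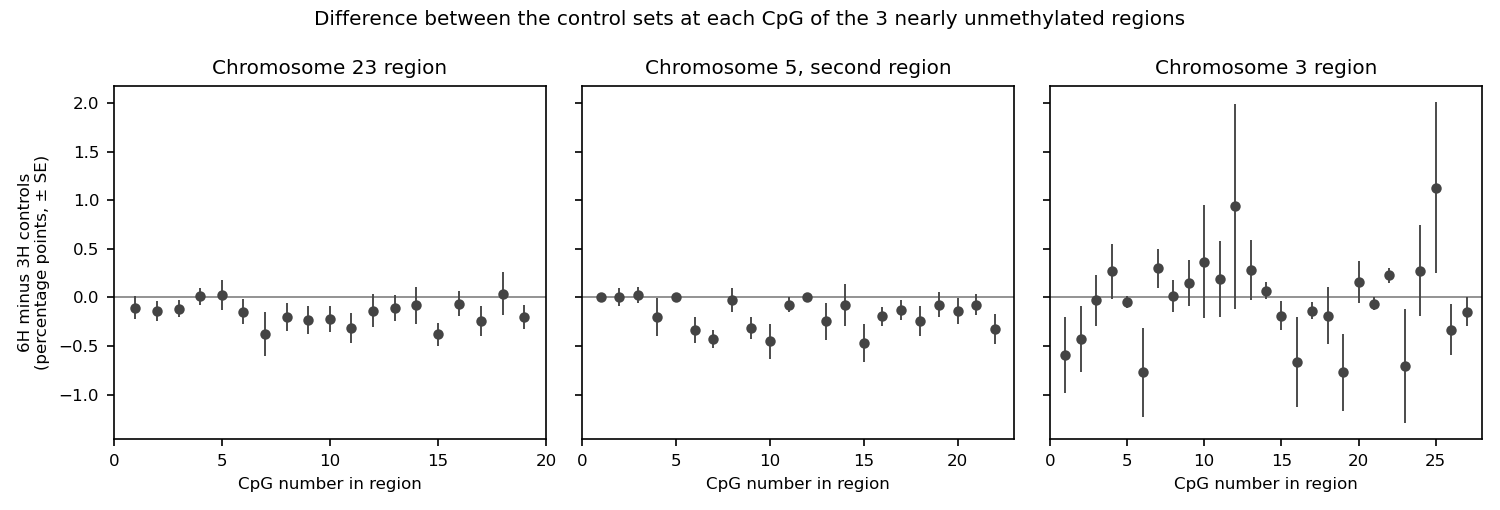
Difference between the mean percent methylated of 6H and 3H controls (vertical axis, percentage points, with the SE of the difference over 5 and 5 samples) at each CpG, numbered along the region (horizontal axis). Points lie below 0 at 16 of 19 CpGs on chromosome 23 and 17 of 22 in the second chromosome 5 region, and at 14 of 27 on chromosome 3.

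No single CpG passed. With edgeR's quasi-likelihood test on methylated and unmethylated reads, 0 of 140 CpGs (0%) had an adjusted p under 0.05, and the lowest was 0.237. At an unadjusted p under 0.05 there were 9 (6.43%) against 7 expected, of which 7 were lower in 6H controls. Limma had 11 at that level and called 0, and the exact permutation test per CpG had 9 and called 0. The exact test needed 23 CpGs at its smallest p of 0.00794, and 3 reached it. All but 1 of the 9 CpGs of the edgeR test lay in the 3 nearly unmethylated regions, which hold 68 of the 140.

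In 3 CpGs (2.14% of 140) every 6H control lay below every 3H control, and in none the reverse. They were the CpGs with the smallest p of the 3 nearly unmethylated regions. Position 67992891 of chromosome 5 was at 0.670%, 0.812%, 0.795%, 1.01% and 0.844% in 3H and 0.478%, 0.295%, 0.653%, 0.251% and 0.336% in 6H controls. The means differed by -0.425 ± 0.0919 percentage points (SE over samples; edgeR adjusted p = 0.237). Position 24973957 of chromosome 23 averaged 0.730% ± 0.239 (SD, n = 5) in the 3H set and 0.348% ± 0.117 (SD, n = 5) in the 6H set. They differed by -0.381 ± 0.119 percentage points (SE; edgeR adjusted p = 0.266). Position 54607259 of chromosome 3 was at 2.42%, 0.445%, 1.05%, 0.232% and 0.477% in 3H controls. All 5 of the 6H controls lay between 0.147% and 0.181% there. The difference of -0.770 ± 0.398 percentage points (SE; edgeR adjusted p = 0.237) fell to -0.396 without 3H replicate 1.

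In the other 5 regions no CpG came as close. The smallest p in the first chromosome 5 region was at 44944858, which was higher in 6H controls, at 5.30% ± 1.20 (SD, n = 5) against 3.70% ± 0.502 (SD, n = 5) (edgeR adjusted p = 0.661). Its difference of 1.60 percentage points was 1.10 without 6H replicate 3, whose median depth was 55 reads. On chromosome 24 it was at 21640811, where 6H controls had 13.3% ± 1.25 (SD, n = 5) and 3H controls 11.6% ± 0.967 (SD, n = 5) (edgeR adjusted p = 0.902). On chromosome 19 it was at 27019198, where 6H controls had 85.3% ± 1.35 (SD, n = 5) and 3H controls 87.6% ± 1.66 (SD, n = 5) (edgeR adjusted p = 0.867). The CpGs on chromosome 10 (44956563, a difference of -3.67) and chromosome 18 (39636223, -3.89) had an edgeR adjusted p of 0.940 each. With any 1 control left out, the former lay from -5.45 to -2.42, and the latter was -1.11 without 3H replicate 1.

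The other regions did not pass, and for the methylated ones the intervals leave room for differences of several percentage points. On chromosome 19, 3H controls averaged 75.1% ± 0.542 (SD, n = 5) and 6H controls 74.0% ± 1.19 (SD, n = 5). The difference was -1.09 percentage points (interval -2.61 to 0.217), and -0.642 without 6H replicate 5. On chromosome 10 they averaged 57.6% ± 4.52 (SD, n = 5) and 56.8% ± 4.02 (SD, n = 5), respectively. The difference of -0.786 (interval -7.66 to 5.95) changed sign without 3H replicate 4 or 5 or 6H replicate 3. Without 44956872, where 3H replicate 1 was near 0, the difference was -1.78 (exact permutation test, adjusted p = 0.787), an alternative chosen after the values were seen.

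On chromosome 18 the mean over 18 CpGs was 75.8% ± 11.4 (SD, n = 5) in the 3H set and 73.5% ± 6.45 (SD, n = 5) in the 6H set, a gap of -2.26 (interval -13.8 to 7.93). Replicate 1 of each set was below the minimum of 10 reads at the 3 sparsely read CpGs, all at 0%, so its mean was over 15 CpGs and that of the other 8 samples over 18. On the same 15 CpGs in every sample, the 3H set averaged 87.1% ± 5.14 (SD, n = 5) and the 6H set 84.8% ± 1.15 (SD, n = 5). That difference was again -2.26, with an interval from -7.14 to 1.23, and it was 0.0193 without 3H replicate 1. For the first chromosome 5 region, 3H controls averaged 17.9% ± 2.11 (SD, n = 5) and 6H controls 18.5% ± 3.91 (SD, n = 5). The difference of 0.564 (interval -4.24 to 5.55) fell below 0 without 3H replicate 5 (-0.342), 6H replicate 3 (-0.363) or 6H replicate 5 (-0.487).

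For chromosome 24 the mean was 15.5% ± 4.61 (SD, n = 5) in the 3H set and 15.6% ± 2.48 (SD, n = 5) in the 6H set. The difference of 0.114 percentage points (interval -4.40 to 4.31) was 2.16 without 3H replicate 4 and below 0 without 6H replicate 1 or any of the other 3H controls. The SD over all 10 controls was 3.49. Over the 11 CpGs after the first 2, the 3H controls were at 14.8%, 14.5%, 15.5%, 15.1% and 14.3%, and the 6H controls at 14.9%, 16.1%, 16.2%, 15.7% and 15.7%. The SD over the 10 controls was 0.656 there. The 6H controls were 0.887 percentage points higher, which did not pass after adjustment (exact permutation p = 0.0238, adjusted p = 0.0635). This choice of CpGs was made after the values were seen.

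The LPS samples of the same sets were used to see whether the difference between sets was shared, over the 135 CpGs covered in all 4 groups. In the 2 regions that passed, its direction was opposite in LPS samples. On chromosome 23 the 6H LPS samples were higher than the 3H LPS samples by 0.0920 percentage points, with means of 0.616% ± 0.0554 (SD, n = 5) and 0.524% ± 0.0408 (SD, n = 5). The difference in controls minus that in LPS samples was -0.249 (permutation p = 9.45e-05, adjusted p = 0.000378). For the second region of chromosome 5, 6H LPS samples were higher than 3H LPS samples by 0.0923 percentage points, and the gap between the 2 differences was -0.291. Its permutation p of 3.15e-05 is the lowest value that this number of arrangements allows (adjusted p = 0.000252). These 2 of 8 regions (25.0%) were the ones that passed, and the test uses the same controls. On chromosome 3 the gap was -0.222 (permutation p = 0.0568, adjusted p = 0.151), and the permutation adjusted p of the other 5 regions lay from 0.651 to 0.993.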

How the data were processed

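Methylation was measured by bisulfite amplicon sequencing. Per the labels' protocols, phenol-chloroform DNA was converted with a commercial bisulfite kit. The submitters' processing notes name Bismark, Bowtie2, FastQC 0.11.6 and Trim Galore 0.4.5, and build GRCz11, without settings. Per the file headers, the deposited tables hold counts of methylated and unmethylated reads and the percent methylated per position. Deposited percent values equalled those recomputed from the counts. No molecular identifiers are given, so intervals cover counting error only.

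Samples were grouped by title. Values from fewer than 10 reads were not used. Kept CpGs at most 500 bp apart formed regions of at least 3 CpGs, and a region's value was the unweighted mean percent. For single CpGs, the quasi-likelihood test of edgeR 4.0.16 in R 4.3.3 was fitted to the 10 controls with 1 intercept per sample, with Benjamini-Hochberg adjustment over 140 CpGs. Regions were compared by exact permutation over samples. Set differences of controls and LPS samples were compared by permuting set labels within treatment (63504 arrangements) after removing the mean set difference, which is approximate. The threshold was an adjusted p of 0.05. Scripts were tested on simulated data. Other tools were limma 3.58.1, matplotlib 3.10.9, scipy 1.17.1, pandas 2.3.3, numpy 2.4.6 and Python 3.11.15.

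Named CpGs were, per region, that with the smallest p, the highest and lowest level (the latter among well-read CpGs) and the largest SD within sets. A few others were named after their values were seen. Members, regions, tests and alternatives were chosen with earlier results of these data known. Same-numbered controls of the sets did not deviate together, so numbers were not treated as pairs. Titles also share numbers between control and LPS samples of a set, and a pairing of these was not tested. Sets may differ in handling or sequencing, which cannot be told apart from the set.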

Additional observations from a re-analysis of the deposited data

Results flagged for a closer look

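Of 70 groups of 5 samples (or 4) tested for a single distant sample, 22 had one. Chance gives about 1 in 20 for independent groups, which cannot be set against this count. A region and its CpGs can mark the same sample, and some CpGs were named for their large spread.

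Regions came first. On chromosome 18, 3H replicate 1 was at 96.2% and 6H replicate 1 at 84.9%, both averaged without the 3 CpGs at 0% where they had fewer than 10 reads. On the same 15 CpGs the other 3H controls were from 84.1% to 85.9% and the other 6H controls from 82.9% to 85.8%, so 6H replicate 1 did not stand apart there. On chromosome 24, 3H replicate 4 was at 23.7% and 6H replicate 1 at 20.1%. In the first chromosome 5 region, 3H replicate 5 was at 14.3%.

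Among CpGs of these regions, 3H replicate 4 was at 89.7% and 6H replicate 1 at 48.3% at 21640622 of chromosome 24, and 3H replicate 2 at 4.92% at 21640786. Replicate 1 of the 3H controls was at 96.3%, 93.7% and 99.5% at 39636223, 39636305 and 39636518 of chromosome 18. Replicate 5 of the 3H controls was at 42.9% at 44945108 of chromosome 5.

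On chromosome 10, 3H replicate 1 was at 0.271% at 44956872. On chromosome 19, 6H replicate 5 was at 18.5% at 27019282.

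In the nearly unmethylated regions, the distant values on chromosome 3 were 5.42% at 54607226 in 6H replicate 5, and 0.527% in 3H replicate 5 and 4.70% in 6H replicate 2 at 54607388. At 54607259, 6H replicate 4 was at 0.181%, a small gap. On chromosome 23, 6H replicate 5 was at 0.864% at 24973782, and 3H replicate 2 was at 1.61% and 6H replicate 3 at 0.569% at 24974054. These last 2 samples had 2543 and 8087 reads at 24974054, against 4979 and 23075 at the next CpG, 24974060. The part of depth was not tested. In the second chromosome 5 region, 6H replicate 4 was at 1.19% at 67992853.

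The difference between sets was not the same in controls and LPS samples in the second chromosome 5 region, by -0.291 percentage points, and on chromosome 23, by -0.249.

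Outside the kept CpGs, the control tables held 5334 calls at 236 positions, of which 42.4% were methylated. Most methylated calls lay away from the 8 regions, 2254 of 3448 calls at 127 positions, and 8 of 1886 lay near them. A cluster on chromosome 7 (35126017 to 35126413) had calls in all 10 controls, 82.6% of 1021 methylated, but at most 22 reads at a position.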

How the results depend on the processing

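The count of 0 CpGs called held under every alternative run, with a lowest adjusted p of 0.0847 without 3H control replicate 4, and the 8 CpGs tested by name kept their direction. No region was called with the replicate block, with the median over CpGs or with the difference of medians (0 of 8 each). Under the replicate block (exact sign-flip test of 5 pairs, which cannot go below p = 0.0625) the second chromosome 5 and chromosome 23 regions stayed at -0.171 and -0.157. With the median over CpGs they were at -0.194 and -0.140, and with the difference of medians at -0.157 and -0.155. Same-numbered samples correlated from -0.291 to 0.161 in their deviations over 133 CpGs, and none correlated best with its own number. With the difference of medians chromosome 18 turned to 0.197, and at a coverage minimum of 100 reads the first chromosome 5 region turned to -0.363; the latter leaves out 6H control replicate 3, with 55 reads. Leaving out each control in turn gave 0 to 2 regions called. The ranges were -0.185 to -0.157 in the second chromosome 5 region, -0.179 to -0.135 on chromosome 23, -0.0819 to 0.0194 on chromosome 3 and -0.487 to 1.55 in the first chromosome 5 region. They were -2.41 to 0.476 on chromosome 10, -5.11 to 2.85 on chromosome 18 and -0.992 to 2.16 on chromosome 24. On chromosome 18 replicate 1 of each set is averaged over fewer CpGs; over the 15 CpGs shared by all samples the difference was -2.28 without 6H replicate 1 and 0.0193 without 3H replicate 1, an alternative also chosen after seeing the data. With fewer samples in a group, an exact test has fewer splits and a coarser p. In the 2 called regions the sets did not overlap with all controls, and leaving out a control could not change that. Their adjusted p (exact permutation test) with 1 control left out was 0.0317 or 0.0635. These differ by whether a split in the opposite direction was as far apart. Other causes were not tested. The test of controls against LPS samples called 2 to 3 regions when any of the 20 samples was left out. Between 69 and 79 CpGs were under 5% whichever coverage rule or sample was used. The alternatives without sparsely read CpGs and without CpGs with a distant sample were chosen after seeing the data.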
